A study of Homo sapiens with 4 samples.

Results

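The genes described here code for the hormone chorionic gonadotropin and its close relative luteinizing hormone. They are 8 of the 43622 genes in the deposited table: CGB1, CGB2, CGB3, CGB5, CGB7 and CGB8 (chorionic gonadotropin beta subunits), LHB (the luteinizing hormone beta subunit) and CGA (the alpha subunit common to the family). The genes were chosen from values measured in these libraries, because CGB5, CGB7 and CGB8 stood higher with MLN4924 and lower again when p14ARF was depleted, and CGA stood higher with MLN4924. The other 4 genes were taken in as members of the same family. Hence the comparisons MLN vs Ctrl and Both vs MLN are given for the 8 genes as descriptions, without a test.

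RNA was sequenced from PC3 cells, an established line of human prostate adenocarcinoma. There were 4 conditions after 3 days of treatment. Ctrl and MLN are the parental cells given DMSO as vehicle or 1 µM of the drug MLN4924, and shARF and Both are the PC3-shp14ARF cells given the same 2 treatments. MLN4924 (pevonedistat) inhibits the enzyme that starts NEDDylation, the attachment of NEDD8 to cullins and other proteins. The PC3-shp14ARF cells carry a stably integrated retroviral short hairpin RNA against p14ARF and were selected with hygromycin, whereas the sources used here name no control hairpin in the Ctrl and MLN cells. Each condition had 3 libraries, and it is not stated that these came from separate cultures, so p-values measure the spread between libraries, which may be technical. Values are given in TPM, a measure of transcript abundance that is scaled to transcript length and to an equal total in each library, and the number of reads per library is not known from it. Values are listed in the order of libraries 1, 2 and 3 for Ctrl, 1, 2 and 5 for MLN, 1, 3 and 5 for shARF, and 2, 3 and 4 for Both.

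Chorionic gonadotropin is a heterodimer of the alpha subunit and a beta subunit. The same alpha subunit also pairs with the beta subunits of luteinizing hormone, follicle-stimulating hormone and thyrotropin, and the beta subunit gives each hormone its specificity. Syncytiotrophoblast of the placenta is the usual source of chorionic gonadotropin, the luteinizing hormone receptor LHCGR binds it, and many carcinomas release free beta subunit without the alpha subunit. The beta genes arose by duplication of the LHB gene in primates. CGB3, CGB5, CGB7 and CGB8 code for the hormone's beta subunit, CGB3, CGB5 and CGB8 for an identical protein, while CGB1 and CGB2 have another promoter and first exon.

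The beta genes lay together on chromosome 19 of GRCh38, in the order LHB (chr19:49015980-49017091), CGB3 (chr19:49022869-49024333), CGB2 (chr19:49031890-49033238), CGB1 (chr19:49035569-49036895), CGB5 (chr19:49043848-49045311), CGB8 (chr19:49047638-49049111) and CGB7 (chr19:49054274-49058860). CGB2 and CGB5 lay on the plus strand and the other genes of the cluster on the minus strand. The cluster spanned 42881 bases. CGA lay on the minus strand of chromosome 6 (chr6:87085498-87095106). Another annotated protein-coding gene on the minus strand (chr19:49022953-49036895) spanned part of CGB3, all of CGB1 and, on the opposite strand, CGB2. A further one on the minus strand (chr19:49055793-49065076) overlapped part of CGB7. Neither was listed under its GENCODE name among the deposited values. Reads there could have been counted to more than one gene if the authors' annotation held such models.

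The 250 bases before the annotated start are shown for CGB8, CGB5 and CGB3, the near-identical genes that differed in level, with capitals at the 10 positions of their alignment where the 3 sequences are not alike (240 aligned columns, 1 of the differing positions with a gap). For CGB2 and CGA they are shown with capitals at the cAMP response element TGACGTCA, because CGA was the one gene of the family listed at 0 without MLN4924 and above 0 in each library with it, whereas CGB2 had near-equal levels in Ctrl and MLN. The sequences are from RefSeq, build GRCh38.p14, which held an entry for each of the 8 genes, and are written 5′ to 3′ on the strand of the gene.
CGB8, chr19:49049112-49049361, minus strand: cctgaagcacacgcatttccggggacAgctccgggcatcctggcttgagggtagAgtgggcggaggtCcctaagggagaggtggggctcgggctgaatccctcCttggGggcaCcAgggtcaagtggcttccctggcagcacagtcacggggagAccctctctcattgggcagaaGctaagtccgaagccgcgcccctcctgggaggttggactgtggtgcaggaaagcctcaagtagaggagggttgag
CGB5, chr19:49043598-49043847, plus strand: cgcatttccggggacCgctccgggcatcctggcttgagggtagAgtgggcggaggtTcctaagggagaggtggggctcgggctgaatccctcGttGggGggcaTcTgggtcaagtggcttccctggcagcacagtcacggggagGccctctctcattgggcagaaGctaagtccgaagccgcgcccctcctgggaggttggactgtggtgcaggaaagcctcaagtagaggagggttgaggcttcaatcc
CGB3, chr19:49024334-49024583, minus strand: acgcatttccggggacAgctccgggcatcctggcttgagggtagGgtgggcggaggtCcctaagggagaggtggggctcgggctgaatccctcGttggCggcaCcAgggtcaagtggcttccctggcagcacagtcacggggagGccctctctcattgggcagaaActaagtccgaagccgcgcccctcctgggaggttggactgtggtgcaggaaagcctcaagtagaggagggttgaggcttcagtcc
CGB2, chr19:49031640-49031889, plus strand: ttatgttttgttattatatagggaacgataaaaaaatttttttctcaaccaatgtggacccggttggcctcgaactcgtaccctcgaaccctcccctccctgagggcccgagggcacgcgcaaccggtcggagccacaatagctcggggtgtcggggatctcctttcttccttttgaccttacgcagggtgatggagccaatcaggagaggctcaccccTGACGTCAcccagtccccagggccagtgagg
CGA, chr6:87095107-87095356, minus strand: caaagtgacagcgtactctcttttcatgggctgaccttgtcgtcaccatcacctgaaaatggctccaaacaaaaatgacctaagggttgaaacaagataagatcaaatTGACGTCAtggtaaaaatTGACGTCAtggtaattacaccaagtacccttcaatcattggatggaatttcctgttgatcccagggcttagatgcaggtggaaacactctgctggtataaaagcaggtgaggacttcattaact
The upstream sequences of CGB3 and CGB8 were identical at 235 of 240 aligned bases, those of CGB5 and CGB8 at 233 of 239, and those of CGB3 and CGB5 at 241 of 249. In contrast, the upstream sequence of CGB7 could be aligned to that of CGB8 over only 76 bases, 58 of them identical.

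Short motifs were searched on both strands from 250 bases before to 50 bases after each start. TGACGTCA occurred 2 times in CGA and 1 time each in CGB1 and CGB2, and in 1.85% of the 35116 promoters in the RefSeq table. It did not occur in the windows of CGB3, CGB5, CGB7, CGB8 and LHB. The AP-1 motif TGANTCA, held by 7.71% of promoters, was in none of the 8 windows. The AP-2 motif GCCNNNGGC occurred 1 time, in CGB7, against 23.2% of promoters. E-boxes (CANNTG, 68.7% of promoters) were in the windows of CGB1, CGB3, CGB5, CGB7, CGB8, LHB and CGA and not in that of CGB2. CACCTG, an E-box of the Snail type and a subset of CANNTG, occurred 3 times in CGA and 1 time in CGB7 (20.6% of promoters). These are matches of letters only.

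Since the CGB transcripts resemble each other, the share of each transcript that could also have come from another member was computed from the GENCODE transcripts. Of the 100-base stretches of the CGB5 transcript (877 bases), 71.5% were also in a transcript of another member. The share was 67.1% for CGB8, 62.2% for CGB3, 57.7% for CGB1 and 54.7% for CGB2. It was 15.1% for CGB7, whose transcript of 1949 bases was the longest, and 0% for LHB and CGA. CGB3 and CGB5 were identical at 869 of 877 aligned transcript bases, CGB3 and CGB8 also at 869 of 877, and CGB5 and CGB8 at 871 of 877. CGB7 was identical to CGB5 at 848 of 876 aligned bases and to CGB8 at 860 of 886. Of the stretches of CGB5 and CGB8, 30.7% and 30.3% were also in CGB7. Therefore, the division of reads among the 6 CGB genes is uncertain, and their summed level is given beside the single genes. How reads with several matches were assigned, the read length and strand are not given in the sources used here.

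**Figure D1:**
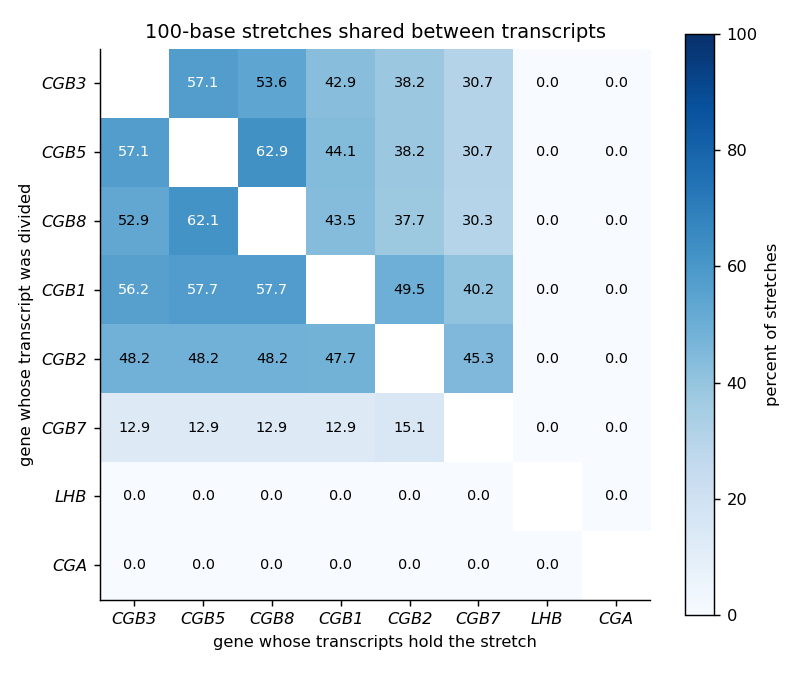
Percent of the 100-base stretches of each gene's transcript (rows) that also occur in the transcripts of another member (columns), from 0 to 100. CGB3, CGB5 and CGB8 share between 52.9% and 62.9% with each other, CGB7 shares at most 15.1% of its own stretches with any other gene, and LHB and CGA share none.

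CDKN2A, the gene from which p14ARF is made, had means of 47.5 ± 6.40 TPM in Both and 59.3 ± 1.47 in shARF, against 118 ± 16.4 in MLN and 183 ± 6.49 in Ctrl (SD, n = 3). It was lower in shARF than in Ctrl by limma (log2 difference −1.63 ± 0.0353 SE, adjusted p = 2.24e-05). CDKN2A also codes for p16INK4a, and the gene level does not separate the transcripts. The epithelial and PC3 markers KRT8, KRT18, KRT19, EPCAM, CDH1 and VIM were above 0 in all 12 libraries. KLK3, a luminal marker, was listed at 0 in all 12. Of the 6 PC3 markers, limma called 5 lower in MLN vs Ctrl, 6 in Both vs shARF and 4 in Both vs MLN. A call here means an adjusted p under 0.05. The shares of all genes called lower in these comparisons were 29.4%, 32.8% and 20.6%. In shARF vs Ctrl, 21% of all genes were called higher and 20.4% lower, against 4 and 1 of the 6 markers. Their summed level was from 1682 to 1848 TPM in Ctrl, 749 to 865 in MLN, 1704 to 1892 in shARF and 661 to 705 in Both. The part of these markers in the results was not tested. In these bulk samples, fewer cells that make a transcript and less transcript per cell cannot be told apart.

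The beta genes were at low levels in PC3 cells, and CGB8, CGB5 and CGB7 stood higher with MLN4924. CGB8 was at 0.531, 0.339 and 0.344 TPM in Ctrl and at 5.19, 5.80 and 4.27 TPM in MLN. The MLN mean was 12.6 times the Ctrl mean, the largest ratio among CGB5, CGB7, CGB8 and LHB. In PC3-shp14ARF cells CGB8 was at 0.178, 0 and 0 TPM with DMSO and at 0.509, 0 and 0 TPM with MLN4924. Thus 4 of the 6 PC3-shp14ARF libraries were listed at 0, and the lowest MLN library stood above each of the others. Over all genes tested, 32.2% were called higher and 29.4% lower in MLN vs Ctrl, and 11.8% and 20.6% in Both vs MLN, at an adjusted p below 0.05 by limma. For CGB8 the log2 difference of (TPM + 0.1), a scale that understates the change of genes at low level, was 3.37 ± 0.213 (SE) for MLN vs Ctrl and −4.82 ± 0.733 for Both vs MLN.

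CGB5, which codes for the same protein as CGB8, was at 0.372, 0.534 and 0.361 TPM in Ctrl and at 2.63, 3.22 and 4.84 TPM in MLN, a ratio of means of 8.44. It was at 0, 0 and 0.755 TPM in shARF and at 0, 0.361 and 0.521 TPM in Both. The MLN libraries lay apart from the rest, and shARF library 5 was the only DMSO library above 0.534 TPM. CGB7, the CGB gene with the lowest share of stretches found in another member, was at 0.369, 0.353 and 0.314 TPM in Ctrl. It was at 2.18, 2.09 and 1.38 TPM in MLN, a ratio of means of 5.45. It was at 0, 0.0918 and 0.0937 TPM in shARF and at 0.177, 0.179 and 0.259 TPM in Both. For CGB7 the 4 conditions did not overlap and ran in the order MLN, Ctrl, Both and shARF. CGB5 and CGB7 were chosen for standing higher in MLN, so the place of MLN was fixed by that choice. The log2 differences for MLN vs Ctrl were 2.78 ± 0.272 for CGB5 and 2.13 ± 0.224 for CGB7, and for Both vs MLN −3.54 ± 0.714 and −2.68 ± 0.245.

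CGB2, CGB1 and CGB3 had another pattern. CGB2 was at 0.182, 0.348 and 0.531 TPM in Ctrl and at 0.172, 0.350 and 0.527 TPM in MLN. These ranges covered each other almost entirely, and the log2 difference for MLN vs Ctrl was −0.02 ± 0.438. In shARF CGB2 was at 0.183, 0 and 0 TPM, and it was listed at 0 in the 3 Both libraries. CGB1 was above 0 in 1 of 12 libraries, Ctrl library 3, at 0.183 TPM. CGB3 was above 0 in 3 of 12 libraries, at 0.178 TPM in Ctrl library 1, 0.344 TPM in MLN library 5 and 0.512 TPM in Both library 2. CGB3 was thus listed at 0 in 2 of 3 MLN libraries although its transcript differs from that of CGB5 and of CGB8 at only 8 aligned bases. CGB1 and CGB3 had means below 0.1 TPM over the 12 libraries and were not tested, so that 6 of the 8 genes passed this filter.

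Values this low move in steps. The CGB2 values above 0 were close to 1, 2 and 3 times the lowest of them (0.172 TPM), at ratios from 1 to 3.09. For CGB8 the values outside MLN were at 1 to 2.98 times 0.178 TPM, against 24.0 to 32.5 times in MLN. For CGB7 the lowest value above 0 was 0.0918 TPM, and the Both libraries were at 1.93 to 2.82 times this value. The number of reads behind a value is not in the files, but differences between levels of a few such steps carry a large counting error.

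LHB, the pituitary member of the cluster, was at 1.82, 0.873 and 0.591 TPM in Ctrl and at 2.30, 1.46 and 2.05 TPM in MLN. The ranges overlapped, and the MLN mean was 1.77 times the Ctrl mean. It was at 0.306, 0.907 and 1.24 TPM in shARF and at 1.46, 0.886 and 0 TPM in Both. The log2 difference for MLN vs Ctrl was 0.88 ± 0.406. The 3′ end of LHB lies 10 bases from the end of RUVBL2, a gene on the other strand at between 76.0 and 121 TPM in the 4 condition means. Since strand is not stated, reads of the 2 genes may not be separable there.

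CGA, the alpha subunit gene, was listed at 0 in the 3 Ctrl and the 3 shARF libraries. It was at 0.452, 1.05 and 0.264 TPM in MLN and at 0.787, 0.266 and 0.767 TPM in Both. CGA was therefore above 0 in each of the 6 libraries with MLN4924 and in none of the 6 with DMSO. It was chosen for being higher with the drug, which favoured this separation. The pattern is not particular to CGA, since INSL4 and XAGE3, 2 placental genes, were also listed at 0 in Ctrl and shARF and above 0 in each MLN and Both library. The share of all genes with this pattern was not counted. The CGA means with MLN4924 were 0.590 ± 0.412 TPM in PC3 cells and 0.607 ± 0.295 TPM in PC3-shp14ARF cells (SD, n = 3), with overlapping ranges. CGB5, CGB7 and CGB8 were chosen in part for being lower in Both than in MLN, so no contrast with CGA is drawn. The CGA values above 0 were at 1 to 3.99 times the lowest of them (0.264 TPM).

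The summed level of the 6 CGB genes depends less than the single genes on how reads were divided among them. It was 1.63, 1.57 and 1.73 TPM in Ctrl, 10.2, 11.5 and 11.4 TPM in MLN, 0.362, 0.0918 and 0.849 TPM in shARF and 1.20, 0.541 and 0.780 TPM in Both. The means were 11.0 ± 0.717 TPM in MLN, 1.65 ± 0.0806 in Ctrl, 0.840 ± 0.333 in Both and 0.434 ± 0.384 in shARF (SD, n = 3). MLN stood above Ctrl and Ctrl above Both without overlap, while the neighbours Both and shARF overlapped. The place of MLN follows from the choice of CGB5, CGB7 and CGB8. CGB5 and CGB8 together made up 76.9% to 80.2% of the sum in the MLN libraries and 40.7% to 55.4% in the Ctrl libraries. The log2 difference of the sum was 2.67 ± 0.0669 (SE) for MLN vs Ctrl, 1.04 ± 0.729 for Both vs shARF, −1.99 ± 0.668 for shARF vs Ctrl and −3.62 ± 0.300 for Both vs MLN. The value for Both vs shARF was 0.45 without shARF library 3 and 1.60 without shARF library 5, and 0.34 with LHB in the sum. The difference with MLN4924 was smaller in PC3-shp14ARF cells than in PC3 cells by −1.63 ± 0.732 on the log2 scale, with values of −2.22 without shARF library 3 and −1.07 without shARF library 5. CGB5, CGB7 and CGB8 were chosen as higher in MLN and lower in Both, which favoured a negative value here. The value is a description and was not tested.

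**Figure D2:**
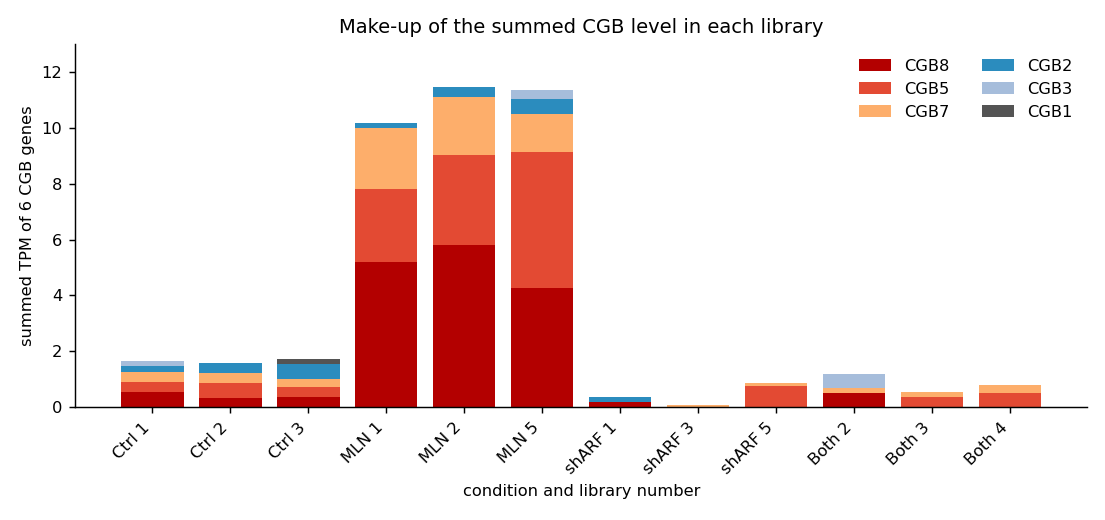
Summed TPM of the 6 CGB genes in each of the 12 libraries, with the height of each colour giving the level of one gene. The MLN libraries reach 10.2 to 11.5 TPM and consist mostly of CGB8, CGB5 and CGB7, and the PC3-shp14ARF libraries reach at most 1.20 TPM.

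The comparison shARF vs Ctrl asks whether p14ARF depletion alone went with other levels of these genes, and it was not used to choose them, although it shares its Ctrl libraries with MLN vs Ctrl. Among all 19932 genes tested with limma, 21% were called higher and 20.4% lower at an adjusted p below 0.05. Of the 6 members tested, CGB7 and CGB8 were called lower, and the other 4 were not called. CGB7 fell by 1.52 on the log2 scale (SE 0.294, adjusted p = 0.0119). CGB8 fell by 1.82 (SE 0.467, adjusted p = 0.0297). CGB2 (log2 difference −1.60, adjusted p = 0.0659), CGB5 (−1.34, adjusted p = 0.310) and LHB (−0.41, adjusted p = 0.628) were not called, and CGA was listed at 0 in the 6 libraries. The call of CGB7 held with each library left out (adjusted p from 0.00496 to 0.0408). The call of CGB8 was lost without Ctrl library 1, 2 or 3 or shARF library 3 or 5 (adjusted p from 0.0704 to 0.0889), and it held without shARF library 1 (0.00462). With a pseudocount of 0.01 TPM neither gene was called (adjusted p = 0.0763 for CGB7 and 0.0637 for CGB8), and with no filter CGB8 was not called (0.0542). CGB5 was called lower without shARF library 5, the one with 0.755 TPM (−2.37, adjusted p = 0.00316), and CGB2 without shARF library 1 (−2.11, adjusted p = 0.0220) and in the fit of all 12 libraries (adjusted p = 0.0239).

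The comparison Both vs shARF asks for the difference with MLN4924 in cells depleted of p14ARF, and it shares its Both libraries with Both vs MLN. Of all genes tested, 28.3% were called higher and 32.8% lower. CGA passed the filter only through the libraries with MLN4924 and was chosen for being higher with the drug, so its difference here is a description with no test, and a fold change has no meaning, since the shARF libraries are listed at 0. Of the other 5 members tested, CGB7 was called higher and 4 were not called. CGB7 rose by 0.97 on the log2 scale (SE 0.334, adjusted p = 0.0470). Its call was lost with any 1 of the 6 libraries left out, shARF 1, 3 and 5 and Both 2, 3 and 4 (adjusted p from 0.0503 to 0.114), and it was also lost with a pseudocount of 1 or 0.01 TPM and with no filter (adjusted p = 0.0575, 0.114 and 0.0665). CGB5 (0.58 ± 1.10, adjusted p = 0.676), CGB8 (0.38 ± 0.848, adjusted p = 0.728), CGB2 (−0.50 ± 0.457, adjusted p = 0.381) and LHB (−0.61 ± 1.11, adjusted p = 0.662) were not called. The standard errors of these 4 genes, from 0.457 to 1.11, were larger than in MLN vs Ctrl, where they were from 0.213 to 0.438.

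The other hormones and receptors of the family were at or near 0. FSHB, TSHB and GPHB5, which code for further beta subunits, and FSHR, the receptor of follicle-stimulating hormone, were listed at 0 in all 12 libraries. GPHA2, another alpha-type subunit, reached 0.170 TPM and was above 0 in 4 libraries. LHCGR was above 0 in 1 library, at 0.0300 TPM, and TSHR in 6, at no more than 0.0524 TPM. None of these 7 genes passed the filter.

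Of 32 transcription factors commonly linked to the promoters of CGA or the CGB genes, 25 could be tested. In MLN vs Ctrl 13 of the 25 factors rose (52%) and 7 fell (28%), against 32.2% and 29.4% of all genes tested. Their median log2 difference was 0.38, against 0.05 over all genes tested. EGR1, an immediate-early factor that acts on the LHB promoter, had means of 0.0816 TPM in Ctrl and 10.7 TPM in MLN (log2 difference 5.96 ± 0.382). It passed the filter only through the libraries with MLN4924 and then had to differ. Its differences here and in Both vs shARF are therefore descriptions with no test, although it is among the factors counted as risen. ATF3, a stress-induced factor that binds cAMP response elements, rose from 9.25 to 174 TPM (4.22 ± 0.0669, adjusted p = 1.24e-06). FOS, a subunit of AP-1, rose from 0.393 to 4.50 TPM (3.21 ± 0.260, adjusted p = 0.000127). MAFF, a small Maf factor, rose from 38.5 to 143 TPM (1.89 ± 0.0695, adjusted p = 9.09e-06). These 4 were the factors with the largest differences at a mean of at least 1 TPM.

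In Both vs shARF 16 of the 25 factors rose and 4 fell, against 28.3% and 32.8% of all genes, with a median of 0.46 against −0.04 over all genes. EGR1 was at 0.0499 TPM in shARF and 19.5 TPM in Both, and ATF3 at 8.33 and 118 TPM. ATF3 rose by limma (adjusted p = 1.25e-06), and the difference of EGR1 is a description. In Both vs MLN 3 of the 25 rose (12%) and 8 fell (32%), against 11.8% and 20.6% of all genes. With median-of-ratios scaling 4 rose and 5 fell. EGR1 was among those that rose (0.88 ± 0.201, adjusted p = 0.0213), while FOS fell (−1.55 ± 0.232, adjusted p = 0.00543), as did MAFF (−0.73 ± 0.0759, adjusted p = 0.00176) and ATF3 (−0.56 ± 0.0463, adjusted p = 0.000943). In shARF vs Ctrl 5 of the 25 rose (20%) and 10 fell (40%), against 21% and 20.4% of all genes. Under median-of-ratios scaling the share of calls that were higher in Both vs MLN over all genes was 51.4% in place of 36.4%.

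The placental list held 52 genes, of which 26 could be tested and 11 were listed at 0 in all 12 libraries. Among the latter were ERVFRD-1 (syncytin-2), CSH2 (placental lactogen) and LGALS13. Other genes of the list went either way, and those named next were picked after their values were seen. PAPPA2 had means of 1.53 TPM in Ctrl and 0.155 TPM in MLN, and ERVW-1 of 0.0333 and 0.0246 TPM. HSD3B1 was listed at 0 in Ctrl and MLN. The following genes stood near 0 in Ctrl and higher in MLN. INSL4, an insulin-like peptide, was listed at 0 in Ctrl and had a mean of 0.947 TPM in MLN. The means in Ctrl and MLN were 0.143 and 2.74 TPM for KISS1, which codes for kisspeptin, 0.191 and 1.17 TPM for PSG9, a pregnancy-specific glycoprotein, and 0.0543 and 0.827 TPM for CYP19A1, aromatase. Genes this low can pass the filter through the libraries with MLN4924 alone, as INSL4 did, and then had to differ, so the counts of this list are descriptions. In MLN vs Ctrl 12 of the 26 rose (46.2%) and 6 fell (23.1%), against 32.2% and 29.4% of all genes tested, with a median log2 difference of 0.65 against 0.05 over all genes. TFPI2, a serine protease inhibitor, rose from 145 to 666 TPM (2.20 ± 0.0757, adjusted p = 7.71e-06), and PGF, the placental growth factor, from 4.45 to 15.4 TPM (1.76 ± 0.0886, adjusted p = 2.28e-05). ADAM12, a metalloprotease, fell from 11.6 to 1.95 TPM (−2.51 ± 0.104, adjusted p = 1.26e-05), and ERV3-1, an endogenous retroviral envelope gene, from 2.99 to 1.14 TPM (−1.34 ± 0.193, adjusted p = 0.00143). The summed level of the 52 genes was from 1477 to 1587 TPM in Ctrl, 2718 to 3329 in MLN, 1705 to 1915 in shARF and 3305 to 3439 in Both. GDF15, TFPI2 and SLC1A5, which are not particular to placenta, made up 66.6% of this sum in Ctrl and 86.0% in MLN, and 37 of the 52 genes had a mean below 1 TPM. The part of the placental list in the levels of the gonadotropin genes was not tested.

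In Both vs shARF 10 of the 26 placental genes rose (38.5%) and 7 fell (26.9%), against 28.3% and 32.8% of all genes. In Both vs MLN 2 rose (7.69%) and 9 fell (34.6%), against 11.8% and 20.6%, and in shARF vs Ctrl 5 rose (19.2%) and 9 fell (34.6%), against 21% and 20.4%. PGF was at 1.52 TPM in shARF and 2.05 TPM in Both and was lower in Both than in MLN (−2.86 ± 0.143, adjusted p = 0.000328). TFPI2 reached 779 TPM in Both and was not called in Both vs MLN (0.22 ± 0.0940, adjusted p = 0.122).

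**Figure D3:**
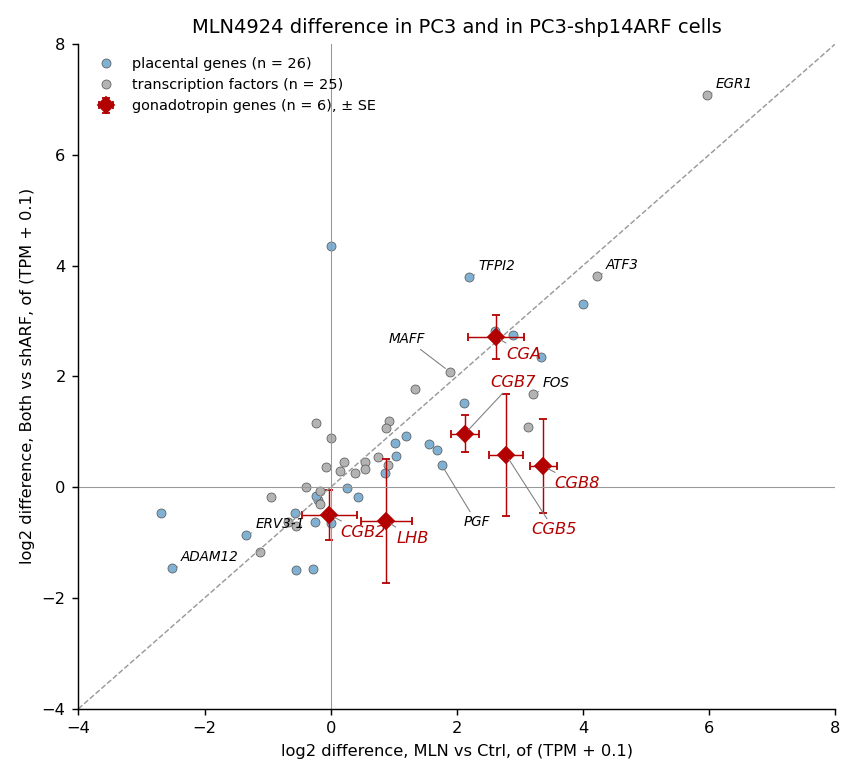
Log2 difference of (TPM + 0.1) in MLN vs Ctrl (horizontal) and in Both vs shARF (vertical), which share no library, for the 6 gonadotropin genes tested (± SE) and the tested genes of both lists. The dashed line marks equal differences. CGA has values of 2.62 and 2.71. CGB8, CGB5 and CGB7 lie below the line, a place favoured by their choice as higher in MLN and lower in Both. No contrast with CGA is drawn from this.

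The genes beside the cluster were read to see whether the neighbourhood moved with it. Within 250000 bases the table held 25 other genes, and 16 could be tested. In MLN vs Ctrl 8 of the 16 rose and 1 fell (8 and 4 with median-of-ratios scaling), with a median log2 difference of 0.34, against 32.2% and 29.4% called and a median of 0.05 over all genes. In Both vs shARF 5 rose and 6 fell (6 and 5 with that scaling), shares of 31.2% and 37.5% beside 28.3% and 32.8% of all genes. In shARF vs Ctrl 5 rose (31.2%) and 2 fell (12.5%), against 21% and 20.4% of all genes. In Both vs MLN 0 rose and 3 fell (18.8%), against 11.8% and 20.6% of all genes, and 1 rose and 3 fell with that scaling. On the LHB side, RUVBL2, an ATPase of chromatin remodelling complexes, was not called in MLN vs Ctrl (0.11 ± 0.0587, adjusted p = 0.140). GYS1, glycogen synthase, fell (−0.90 ± 0.124, adjusted p = 0.00115) and FTL, the ferritin light chain, rose (1.33 ± 0.203, adjusted p = 0.00180). On the CGB7 side, SNRNP70, a component of the U1 spliceosomal particle, rose (0.39 ± 0.0946, adjusted p = 0.0120), as did LIN7B, a scaffold protein (1.58 ± 0.211, adjusted p = 0.000997). C19orf73 was not called (0.04 ± 0.265, adjusted p = 0.914). None of these 6 nearest genes was called in Both vs MLN, where most genes tested were not called either. With 6 genes this count cannot set them apart from all genes.

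Other genes were ranked by the likeness of their pattern to the summed CGB level, as Pearson's r of log2(TPM + 0.1) over the 12 libraries among the 14660 genes whose mean reached 1 TPM. The 6 highest were SLC10A4 (r = 0.988), NYAP1 (0.975), TRPV2 (0.974), COL1A1 (0.972), NUDC (0.971) and LINC01089 (0.970). The 12 libraries fall into 4 conditions, so r mostly reflects the condition means. SLC10A4, a member of the sodium and bile acid cotransporter family, was at 3.17 ± 0.126 TPM in MLN, 0.682 ± 0.0905 in Ctrl, 0.388 ± 0.125 in Both and 0.206 ± 0.206 in shARF, the same order as the summed CGB level. Within the family, r with the sum was 0.932 for CGB7, 0.924 for CGB8 and 0.872 for CGB5, which are part of it, 0.496 for LHB and 0.491 for CGA.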

How the data were processed

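RNA-seq of PC3 and PC3-shp14ARF cells was analysed from the table of TPM values that the authors deposited. Per the paper's methods, the authors trimmed and mapped the reads to hg38 and quantified genes on an Ensembl annotation in CLC Genomics Workbench. The TPM values were read as deposited for 12 libraries, with groups from the sample labels. TPM keeps no depth, so the precision of low values is known only from the spread of 3 libraries. log2(TPM + 0.1) of the 19932 genes whose mean reached 0.1 TPM was fitted with limma 3.58.1 (lmFit, eBayes with trend) in R 4.3.3, each comparison on its 6 libraries. P-values were adjusted by Benjamini-Hochberg over the genes tested, and calls were made at an adjusted p below 0.05. The table holds no counts, so no count model was used. The fit was tested on simulated data. No 2 libraries of a condition shared a value above 0.

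The members and gene lists were chosen with earlier results of these data known. The genes named are the 8 members, CDKN2A, 7 related hormone and receptor genes, the 4 genes of each list with the largest called difference in MLN vs Ctrl at a mean of at least 1 TPM, the 3 nearest tested protein-coding genes on each side of the cluster, and the 6 genes most like the summed CGB level. ERVFRD-1, CSH2, LGALS13, PAPPA2, ERVW-1, HSD3B1, INSL4, XAGE3, KISS1, PSG9, CYP19A1, GDF15 and SLC1A5 were named after their values were seen. Positions and transcripts are from GENCODE v44 (GRCh38), another release than that of the authors. Promoters were aligned with mafft 7.526 and Biopython 1.88. Alternatives were each library left out, a replicate block, a fit of all 12 libraries, eBayes with no trend, median-of-ratios scaling, pseudocounts of 1 and 0.01, and a filter at 1 TPM or none. A sum over CGB5, CGB7 and CGB8 was added after seeing the data. The rest of the luminal marker list is not reported here. The authors' own comparisons were not used.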

Additional observations from a re-analysis of the deposited data

How the results depend on the processing

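For shARF vs Ctrl, the 2 members called became 1 with a filter at a mean of 1 TPM or with no filter, 0 with a pseudocount of 0.01, and 1 to 3 with each library left out. For Both vs shARF, the 2 became 1 with a pseudocount of 1 or 0.01, with no filter or with any library left out, and 0 with a filter at 1 TPM, which removed CGA and CGB7. These counts for Both vs shARF include CGA, whose difference was fixed by its choice. CGB7 was called there in 3 of 12 alternatives, and in shARF vs Ctrl CGB7 was called in 11 of 13 and CGB8 in 6 of 14. Directions reversed for LHB in shARF vs Ctrl without shARF library 1 (range −0.77 to 0.0896), for CGB8 in Both vs shARF without Both library 2 (range −0.49 to 0.87) and for LHB there without Both library 4 (range −1.38 to 0.60), each range over the libraries left out in turn. None of these was called in either fit.

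The log2 differences of the summed CGB level with a pseudocount of 1 were −0.92 for shARF vs Ctrl, 2.18 for MLN vs Ctrl and −2.72 for Both vs MLN, smaller by construction. With LHB in the sum they were 2.22 for MLN vs Ctrl, −3.07 for Both vs MLN, 0.34 for Both vs shARF and −1.19 for shARF vs Ctrl, and over CGB5, CGB7 and CGB8 alone, chosen after seeing the data, 3.07 for MLN vs Ctrl. Genes called in Both vs MLN numbered 6464, and 4005 to 5731 with each library left out, with 4005 without MLN library 2 and 4199 without Both library 2. The cause was not tested.

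Same-numbered libraries did not deviate together (correlations from −0.147 to 0.0630 over 10 pairs, against −0.113 to 0.126 over 44 pairs of different number). This cannot settle whether the numbers pair the samples, because the sources used here do not describe them. With the number as a replicate block, the genes called went from 8251 to 0 in shARF vs Ctrl (7757 at an unadjusted p under 0.05 in limma), its members called from 2 to 0, and the genes called in MLN vs Ctrl from 12283 to 5708. The block leaves few degrees of freedom, and no block could be fitted to the other 2 comparisons, whose groups share 1 number.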
